A study of Homo sapiens with 6 samples.

Results

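The autophagy machinery and the TFEB family of transcription factors were examined in TPC1 cells with and without overexpressed TFCP2L1. The set held 43 genes, chosen by symbol from the 21173 genes of the deposited count table: the ULK1 kinase complex, the class III lipid kinase complexes, membrane supply factors, the conjugation enzymes, the ATG4 proteases, the ATG8 proteins, cargo receptors, fusion factors, and TFEB, TFE3 and MITF. TPC1 is a line of human papillary thyroid cancer cells that carries a RET fusion. RNA-seq libraries came from 3 samples of TPC1 cells with a vector, whose genotype is labelled WT, and 3 samples of TPC1 cells labelled as overexpressing TFCP2L1, and no other treatment is labelled in either group. TFCP2L1 is a transcription factor of the CP2 family. The sources used here do not give the promoter that drives it, the time after its introduction or whether the cells were 1 clone or a pool. The labels do not say that the samples of a group were separate cultures, and the p-values below therefore describe the spread among these libraries, part or all of which may be technical.

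Autophagy encloses cytoplasm in a double membrane, the autophagosome, which then fuses with a lysosome so that its contents are degraded. The ULK1 kinase starts the process, a lipid kinase marks the membrane with phosphatidylinositol 3-phosphate, and a ubiquitin-like conjugation pathway attaches ATG8 proteins to membrane lipid, where cargo receptors bind them. TFEB, TFE3 and MITF are related factors that, when nutrients are short, enter the nucleus and induce genes of lysosomes and autophagy. Much of this control acts on proteins, which RNA levels do not show.

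Library totals ran from 37928516 to 38987434 reads, and 17805 to 18102 genes had a read. The overexpressed gene, TFCP2L1, reached 13578, 13885 and 12333 reads in its 3 libraries, against 1 read in all vector libraries together. Mitochondrially encoded genes took 5.13% to 6.72% of reads in vector and 5.19% to 7.59% in TFCP2L1 libraries, and these ranges overlap. Of the thyroid markers, mean PAX8 was 544 CPM (reads scaled to library size) with the vector and 478 with TFCP2L1, FOXE1 17.5 and 14.0, HHEX 7.15 and 8.53, and TG 1.10 and 1.03, and 0 of these 4 were called by edgeR (2 had an unadjusted p under 0.05). Leukocyte and endothelial markers in the table were at or below 1.01 CPM in both groups, and EPCAM and CDH1 were near 0 while KRT18 was at 165 and 156 CPM. The fibroblast markers summed to 6.14 to 6.88 CPM in vector and 4.02 to 5.20 CPM in TFCP2L1 libraries. COL1A1 was at 5.02 and 3.69 CPM on average (edgeR adjusted p = 0.118), LUM at 1.28 and 0.950, and PDGFRA at 0.123 and 0.103. COL1A2 and COL3A1 were near absent in both groups, with at most 1 read in each vector library and 0 in each TFCP2L1 library. The part of the fibroblast markers in the results was not tested.

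Few of these genes were called, and a gene that was not called is not thereby shown to be unchanged. By edgeR's quasi-likelihood test, at a Benjamini-Hochberg adjusted p under 0.05, 4 of the 42 tested genes were lower in TFCP2L1 cells: GABARAPL1, WIPI1, OPTN and SQSTM1. This is 9.52% of them, against 7.04% of all 14431 tested genes. TFEB was higher, 2.38% of the tested members against 4.68% of all tested genes, and 37 members were not called. The shares called were thus close to the background downwards and below it upwards, and they set the list apart in neither direction. Both moved with single libraries: without vector replicate 3, 2 members (4.76%) were lower and 0 higher, against 4.43% and 2.12% of all tested genes, and without vector replicate 1, 3 (7.14%) and 0, against 4.58% and 1.99%. RNA of whole samples was measured, so fewer cells expressing a gene and less RNA per cell cannot be told apart.

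The remaining fold changes were small and mostly negative. The log2 fold change was below 0 for 34 of 42 tested members, 81.0%, against 49.5% of all tested genes, and its median was -0.09 against 0.00. Over the other scalings, tests and left-out libraries, 32 to 35 members were below 0. In 36 of the 42 members the log2 fold change was within 0.25 of 0. All 3 TFCP2L1 libraries lay below all 3 vector libraries for 12 members, 28.6%, against 15.6% of all tested genes, and above them for 3 members, 7.14%, against 14.4%. The same direction showed in the summed reads: the 43 genes took 0.407%, 0.389% and 0.399% of reads in vector libraries and 0.359%, 0.357% and 0.355% in TFCP2L1 libraries. SQSTM1 alone took 0.134% to 0.144% of reads in vector libraries. Without it the shares were 0.263%, 0.255% and 0.262% against 0.244%, 0.249% and 0.238%, which still did not overlap. This sum still holds the called genes GABARAPL1, WIPI1 and OPTN. It therefore does not show a fall shared by the genes that were not called.

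**Figure D1:**
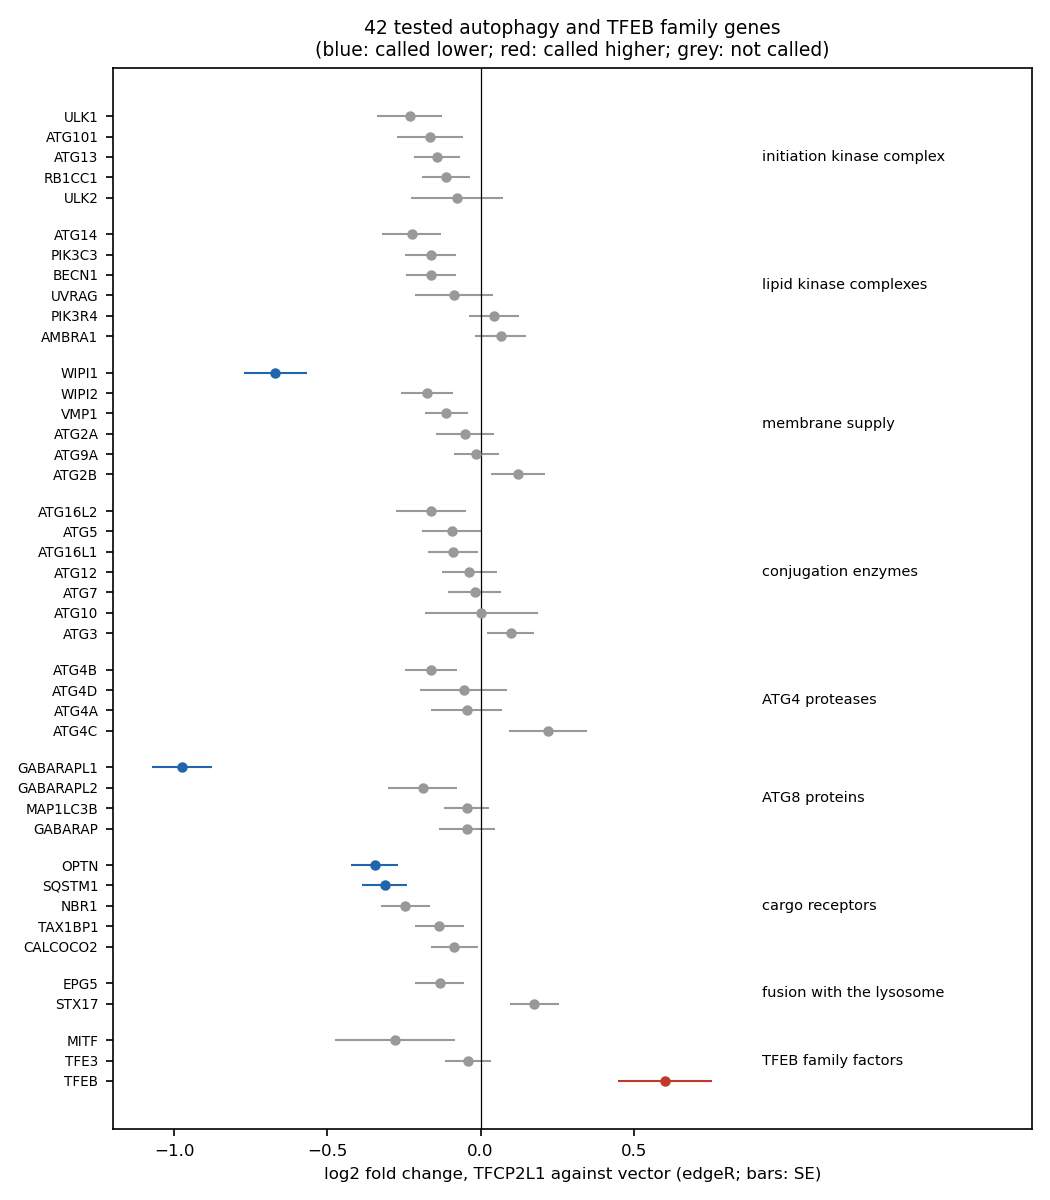
Fold change of each tested gene between TFCP2L1 and vector cells, on a log2 scale (x axis; bars are standard errors from edgeR), with genes grouped by role on the y axis. GABARAPL1 and WIPI1 stand farthest below 0, TFEB alone is called above 0, and most others lie slightly below 0 within 0.25.

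Promoters were searched for letters that bear on the factors at hand, in the 250 bases before each RefSeq start (GRCh38.p14), on both strands. RefSeq entries were matched for 37 of the 43 genes, with 49 promoters. The motifs were the E-box CACGTG that TFEB family proteins bind, the longer CLEAR element GTCACGTGAC, which contains an E-box, the M-box TCATGTG known for MITF, and the paired half-sites CCAGNNNNNNCCAG of CP2 family factors. The promoters of 3 of the 4 genes that fell are shown with those of the 2 genes that hold an E-box, with any match in capitals. For SQSTM1, which has several starts, only the window with a match is shown.
GABARAPL1, chr12:10212627-10212876, plus strand: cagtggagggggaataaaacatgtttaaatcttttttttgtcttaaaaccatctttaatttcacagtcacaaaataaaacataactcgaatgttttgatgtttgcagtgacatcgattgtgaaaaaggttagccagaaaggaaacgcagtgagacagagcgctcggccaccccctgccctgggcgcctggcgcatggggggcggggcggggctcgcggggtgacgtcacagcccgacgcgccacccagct
WIPI1, chr17:68457497-68457746, minus strand: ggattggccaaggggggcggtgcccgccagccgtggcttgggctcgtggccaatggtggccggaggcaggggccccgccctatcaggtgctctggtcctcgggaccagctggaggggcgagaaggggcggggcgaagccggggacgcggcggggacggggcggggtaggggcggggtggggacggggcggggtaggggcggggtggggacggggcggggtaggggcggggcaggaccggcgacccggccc
SQSTM1, chr5:179806759-179807008, plus strand: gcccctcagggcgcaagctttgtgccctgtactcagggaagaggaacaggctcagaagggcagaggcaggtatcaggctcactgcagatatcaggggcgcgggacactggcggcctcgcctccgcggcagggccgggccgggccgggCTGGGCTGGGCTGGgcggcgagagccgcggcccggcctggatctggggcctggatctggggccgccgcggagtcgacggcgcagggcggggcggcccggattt
ATG14, chr14:55411831-55412080, minus strand: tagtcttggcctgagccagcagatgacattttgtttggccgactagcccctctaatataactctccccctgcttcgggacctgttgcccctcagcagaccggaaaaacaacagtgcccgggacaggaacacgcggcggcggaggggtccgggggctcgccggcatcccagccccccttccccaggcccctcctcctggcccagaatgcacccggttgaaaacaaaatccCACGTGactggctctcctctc
ATG3, chr3:112561963-112562212, minus strand: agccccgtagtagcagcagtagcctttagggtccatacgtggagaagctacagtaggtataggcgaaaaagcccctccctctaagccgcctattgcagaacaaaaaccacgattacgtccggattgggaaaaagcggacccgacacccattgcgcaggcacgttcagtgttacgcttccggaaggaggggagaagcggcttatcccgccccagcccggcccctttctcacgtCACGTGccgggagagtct
The E-box lay 21 bases before the ATG14 start and 18 bases before the ATG3 start, and was in 2 of 49 member promoters, 4.08%, against 6.34% of all 35116 promoters. The CLEAR element was in 0 of 49, against 0.308% of all promoters. The M-box was in 2 of 49, those of ATG101 and WIPI2, against 2.52%. The paired CP2 half-sites were in 2 of 49, against 3.27%: 103 bases before 1 of the SQSTM1 starts and 226 bases before the MAP1LC3B start, both on the opposite strand. None of these letters was in the windows shown for GABARAPL1 and WIPI1, or in those of OPTN and TFEB, which are not printed. The other SQSTM1 windows, at chr5:179806143-179806392 and chr5:179820655-179820904, are not printed and held no match either. A match in such a window is a description of its letters and was not tested for binding.

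TFEB was the 1 member that rose. Its level was 7.23, 8.58 and 7.17 CPM in the vector libraries and 12.4, 9.34 and 13.2 CPM in the TFCP2L1 libraries. The groups did not overlap, and TFCP2L1 replicate 2 lay close to vector replicate 2. The log2 fold change was 0.60 ± 0.15 (SE), with an edgeR adjusted p of 0.0169. The call was lost without vector replicate 1 (adjusted p = 0.0779), vector replicate 3 (0.0840) or TFCP2L1 replicate 1 (0.0760). With the replicate numbers added to the edgeR fit as a block, the TFEB call was lost too. TFEB lies at chromosome 6, 41683978 to 41736259, on the minus strand (GRCh38, GENCODE 29), and no antisense exon overlaps it.

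Within its family TFEB stayed the minor member next to TFE3. Levels of different genes were compared as FPKM, which divides reads by gene length and library total. In vector cells TFE3 was at 30.3 ± 0.602 FPKM (SD, n = 3), TFEB at 2.08 ± 0.205 and MITF at 0.870 ± 0.172, and in TFCP2L1 cells they were at 30.0 ± 1.75, 3.22 ± 0.564 and 0.730 ± 0.140 FPKM. The log2 fold changes of TFE3 (-0.04 ± 0.08, edgeR adjusted p = 0.795) and MITF (-0.28 ± 0.20, 0.414) did not pass, and the MITF libraries of both groups overlapped. TFEB held 6.06%, 6.76% and 5.89% of the summed FPKM of the family in vector libraries and 10.1%, 8.11% and 10.02% in TFCP2L1 libraries. The difference of means was 3.18 percentage points, with p = 0.1 in an exact two-sided permutation test, the smallest p that 3 against 3 libraries allow. The sum over the family was 33.3 ± 0.923 FPKM in vector and 34.0 ± 2.20 FPKM in TFCP2L1 cells, with overlapping libraries.

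The ULK1 kinase complex, which starts autophagosome formation, had 0 of 5 members called by edgeR, DESeq2 or limma-voom (1 at an unadjusted edgeR p under 0.05), and all 5 log2 fold changes were negative, with a median of -0.14. ULK1, the kinase itself, was at 25.7, 28.0 and 27.2 CPM in vector and 25.0, 19.9 and 24.0 CPM in TFCP2L1 libraries. These did not overlap, but the gap was small and the edgeR adjusted p was 0.181 at a log2 fold change of -0.23 ± 0.11. ATG13, the regulatory subunit, was at 79.6, 76.5 and 74.5 CPM against 66.9, 71.7 and 70.3 CPM, also without overlap (-0.14 ± 0.08, adjusted p = 0.260). ATG101, which stabilises ATG13, had -0.16 ± 0.11. The scaffold RB1CC1, also known as FIP200, had -0.11 ± 0.08, and the second kinase ULK2 -0.08 ± 0.15, and in these 3 the groups overlapped. ULK2 was the lowest of the tested genes per length, at 0.664 FPKM in vector cells.

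The lipid kinase complexes also had 0 of 6 members called by these tools (1 at an unadjusted edgeR p under 0.05), with 4 negative and 2 positive log2 fold changes. ATG14, which directs the kinase to the site of autophagosome formation, was at 23.4, 24.5 and 24.0 CPM in vector and 21.5, 20.3 and 19.8 CPM in TFCP2L1 libraries. The groups did not overlap, and the log2 fold change of -0.22 ± 0.10 had an edgeR adjusted p of 0.154. The catalytic subunit PIK3C3 (-0.16 ± 0.08, adjusted p = 0.245) and BECN1, the Beclin 1 subunit (-0.16 ± 0.08, 0.235), likewise did not overlap between groups. PIK3R4, the regulatory kinase subunit, had 0.04 ± 0.08 and AMBRA1, a Beclin 1 binding protein, 0.07 ± 0.08. UVRAG, the subunit that takes the place of ATG14 in the endosomal complex, had -0.09 ± 0.13, and its vector libraries were spread at 25.6, 18.3 and 26.9 CPM. Its sign changed without vector replicate 3.

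Among the 6 factors that supply membrane or bind the lipid mark, WIPI1 fell. It encodes a protein that binds phosphatidylinositol 3-phosphate, and it lies at chromosome 17, 68420948 to 68457513, on the minus strand. Its level was 37.6, 34.3 and 37.4 CPM in vector libraries and 25.3, 23.4 and 19.99 CPM in TFCP2L1 libraries, so the groups were well apart. The log2 fold change was -0.67 ± 0.10, with an edgeR adjusted p of 0.000390. The antisense genes ARSG and AC007780.1 cover 28.1% of its exon bases, and the sources used here do not say whether counting used strand. ARSG itself was at 2.99 CPM in vector and 1.76 CPM in TFCP2L1 cells (adjusted p = 0.0603), and its part in the WIPI1 count was not tested.

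The relative of WIPI1 and the lipid carriers showed no called change. WIPI2, which recruits the conjugation machinery to the marked membrane, was at 154, 138 and 155 CPM against 135, 143 and 117 CPM, with overlap (-0.18 ± 0.09, edgeR adjusted p = 0.212). A test of WIPI1 against WIPI2 was not run. VMP1, a scramblase of the endoplasmic reticulum, was at 185, 187 and 186 CPM against 166, 180 and 169 CPM, without overlap (-0.11 ± 0.07, adjusted p = 0.345). The lipid transfer genes ATG2A (-0.05 ± 0.09) and ATG2B (0.12 ± 0.09) and the scramblase gene ATG9A (-0.01 ± 0.07) overlapped between groups, and ATG2A and ATG9A each changed sign under at least 1 alternative.

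Of the groups by role, the conjugation enzymes had the smallest median absolute log2 fold change, 0.0915, and their median log2 fold change was -0.04. By edgeR, DESeq2 or limma-voom, 0 of 7 were called, and 0 had an unadjusted edgeR p under 0.05. The enzymes act in order, from the E1 enzyme ATG7 to the E2 enzymes ATG3 and ATG10 and to the ATG12, ATG5 and ATG16L1 complex that places ATG8 proteins on lipid. ATG3 was at 61.7, 59.2 and 61.03 CPM in vector and 63.5, 68.1 and 63.2 CPM in TFCP2L1 libraries. All TFCP2L1 libraries lay above, at a log2 fold change of 0.10 ± 0.08 and an edgeR adjusted p of 0.470. ATG7 (-0.02 ± 0.09), ATG12 (-0.04 ± 0.09) and ATG10 (0.00 ± 0.18) were close to 0 and changed sign with single libraries left out. ATG5 (-0.09 ± 0.10), ATG16L1 (-0.09 ± 0.08) and its relative ATG16L2 (-0.16 ± 0.11) overlapped between groups. Near-identical copies hold 9.67% of the ATG12 transcript, so its level is less certain.

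Of the 4 ATG4 proteases, which cut ATG8 proteins before conjugation and release them afterwards, 0 were called by the same tools and 0 had an unadjusted edgeR p under 0.05. ATG4B was at 40.7, 40.9 and 39.6 CPM in vector and 37.6, 33.8 and 37.0 CPM in TFCP2L1 libraries, without overlap (-0.16 ± 0.09, edgeR adjusted p = 0.253). ATG4C had the opposite sign, at 12.2, 12.2 and 11.6 CPM against 14.2, 15.9 and 11.8 CPM, with overlap (0.22 ± 0.13, 0.308). ATG4A (-0.04 ± 0.12) and ATG4D (-0.06 ± 0.14) were near 0.

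GABARAPL1 showed the largest fold change of the tested members. It encodes an ATG8 protein of the GABARAP branch, which is attached to autophagosomes and binds cargo receptors, and lies at chromosome 12, 10212458 to 10223130, on the plus strand. Its level was 49.9, 51.6 and 50.6 CPM in vector libraries and 27.4, 22.2 and 27.8 CPM in TFCP2L1 libraries. Every TFCP2L1 library was far below every vector library, and the replicates of each group were close together. The log2 fold change was -0.97 ± 0.10, a fall of 49.1%, with an edgeR adjusted p of 5.30e-06. The calls of GABARAPL1 and WIPI1 held under all 15 alternatives, which those of the other 3 called genes did not. An antisense gene covers 8.05% of its exon bases.

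The other ATG8 genes did not pass. GABARAP was at 128, 133 and 112 CPM in vector and 121, 108 and 133 CPM in TFCP2L1 libraries (-0.04 ± 0.09, edgeR adjusted p = 0.810). GABARAPL2, of the same branch, was at 47.3, 37.3 and 42.5 CPM against 39.2, 40.9 and 31.4 CPM (-0.19 ± 0.11, 0.318). MAP1LC3B, which encodes the LC3B protein used as an autophagosome marker, was at 136, 130 and 126 CPM against 124, 132 and 124 CPM (-0.05 ± 0.07, 0.746). In all of these the groups overlapped. Reads of MAP1LC3B are uncertain because 22.3% of its transcript is shared with MAP1LC3B2. A gene on the same strand covers 30.5% of the exon bases of GABARAP, and an antisense gene covers 25.2%. MAP1LC3A was too low to test, with 8, 6 and 0 reads in vector libraries and 0 in each TFCP2L1 library. Its 14 vector reads, set against a floor of 3 reads over the TFCP2L1 group, gave a 4.71-fold difference. The scatter of so few reads is left out of that value, so it is not a lower bound. The vector libraries of MAP1LC3A include a 0 and so overlap with the TFCP2L1 libraries.

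Per length, the order of the ATG8 genes in vector cells was GABARAP at 93.5 ± 7.87 FPKM, MAP1LC3B at 60.2 ± 2.29, GABARAPL2 at 43.1 ± 5.24, GABARAPL1 at 21.8 ± 0.283 and MAP1LC3A at 0.0939 ± 0.0839 (SD, n = 3). In TFCP2L1 cells the order was the same, with GABARAPL1 at 11.3 ± 1.38 FPKM. Its share of the summed FPKM was 9.37%, 10.05% and 10.5% in vector libraries and 5.89%, 4.94% and 5.94% in TFCP2L1 libraries. The shares did not overlap, with a difference of -4.38 percentage points and p = 0.1 in an exact two-sided permutation test, again the smallest possible. Counting every gene and sum of both families, as FPKM and as raw counts, 20 such tests were run, and Benjamini-Hochberg adjustment over them put the permutation p of both the GABARAPL1 and the TFEB share at 0.2. The MAP1LC3B share also did not overlap, at 27.4%, 27.2% and 28.0% against 28.6%, 31.4% and 28.5%, with the same exact permutation p of 0.1 (0.2 adjusted). Shares of a library add up to a fixed total, so a lower GABARAPL1 share raises the others together. The MAP1LC3B share is therefore not a separate result, and MAP1LC3B itself was at 60.2 and 59.4 FPKM. The GABARAP share, 42.7% and 45.8% on average, and the GABARAPL2 share, 19.7% and 19.1%, overlapped between the groups. The summed FPKM of the family was 219 ± 10.4 with the vector and 202 ± 4.73 with TFCP2L1, without overlap and with the same p.

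**Figure D2:**
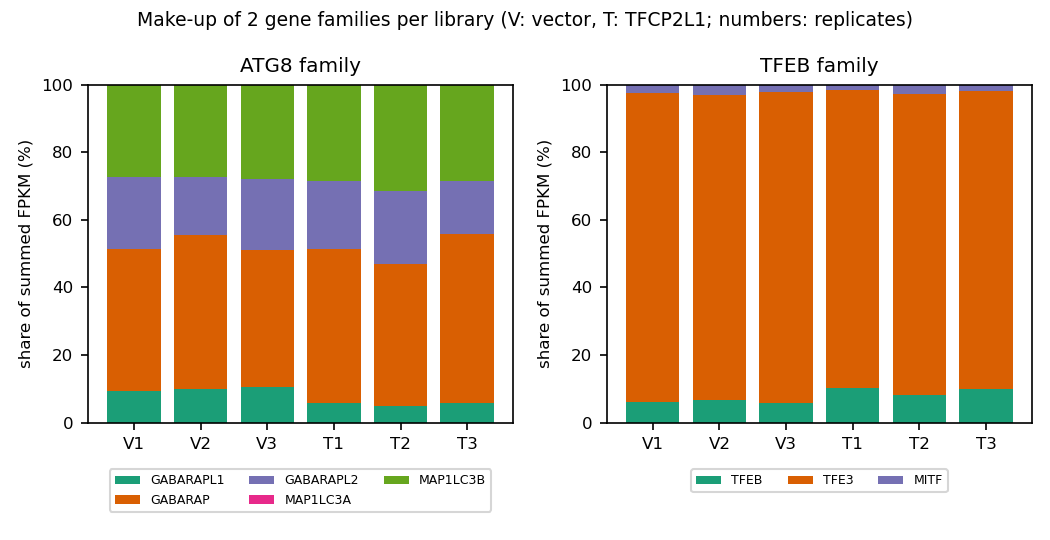
Share of each gene in the summed FPKM of its family (y axis, percent), for each library (x axis), with the ATG8 family on the left and the TFEB family on the right. GABARAPL1 takes 9.37% to 10.5% in vector and 4.94% to 5.94% in TFCP2L1 libraries, and TFEB takes 5.89% to 6.76% and 8.11% to 10.1%; MAP1LC3A is too low to see.

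Cargo receptors, which bind ubiquitylated cargo on one side and ATG8 proteins on the other, had 2 of 5 members called lower, against 7.04% of all tested genes, and all 5 log2 fold changes were negative, against 49.5% of all, with a median of -0.25. Without vector replicate 3 both calls were lost. SQSTM1, which encodes p62, was the most abundant of all 43 genes per length, at 424 ± 15.8 FPKM in vector cells. Its level was 1453, 1363 and 1378 CPM in vector and 1131, 1073 and 1172 CPM in TFCP2L1 libraries. The groups were clearly apart, at a log2 fold change of -0.31 ± 0.07, a fall of 19.5%, and an edgeR adjusted p of 0.00967. The call was lost without vector replicate 1 (adjusted p = 0.0826) or vector replicate 3 (0.0520) and in limma on FPKM with a pseudocount of 1 (0.0580) or 0.1 (0.0568). With the replicate numbers added to the edgeR fit as a block, the SQSTM1 call was lost too. SQSTM1 lies at chromosome 5, 179806398 to 179838078, on the plus strand. The antisense genes MGAT4B and MRNIP cover 22.0% of its exon bases, and mean MGAT4B was 144 CPM with the vector and 145 with TFCP2L1, and MRNIP 3.16 and 3.62. Their part in the SQSTM1 count was not tested.

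OPTN, which encodes optineurin, a receptor for damaged mitochondria and bacteria, also fell. It lies at chromosome 10, 13099449 to 13138308, on the plus strand. Its level was 170, 168 and 177 CPM in vector and 134, 145 and 127 CPM in TFCP2L1 libraries, without overlap. The log2 fold change was -0.35 ± 0.08, a fall of 21.3%, with an edgeR adjusted p of 0.00619, and the call was lost without vector replicate 3 (0.0545). NBR1, a receptor that works beside p62, just missed the threshold, at an edgeR adjusted p of 0.0567. It was at 143, 132 and 139 CPM against 115, 127 and 107 CPM, again without overlap (-0.25 ± 0.08). DESeq2 called NBR1 (adjusted p = 0.0430), as did edgeR without TFCP2L1 replicate 2 (0.0160). TAX1BP1 was at 112, 110 and 116 CPM against 96.9, 114 and 97.5 CPM (-0.14 ± 0.08, edgeR adjusted p = 0.319). CALCOCO2, which encodes the bacterial receptor NDP52, had -0.09 ± 0.08, and in both of these the groups overlapped.

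**Figure D3:**
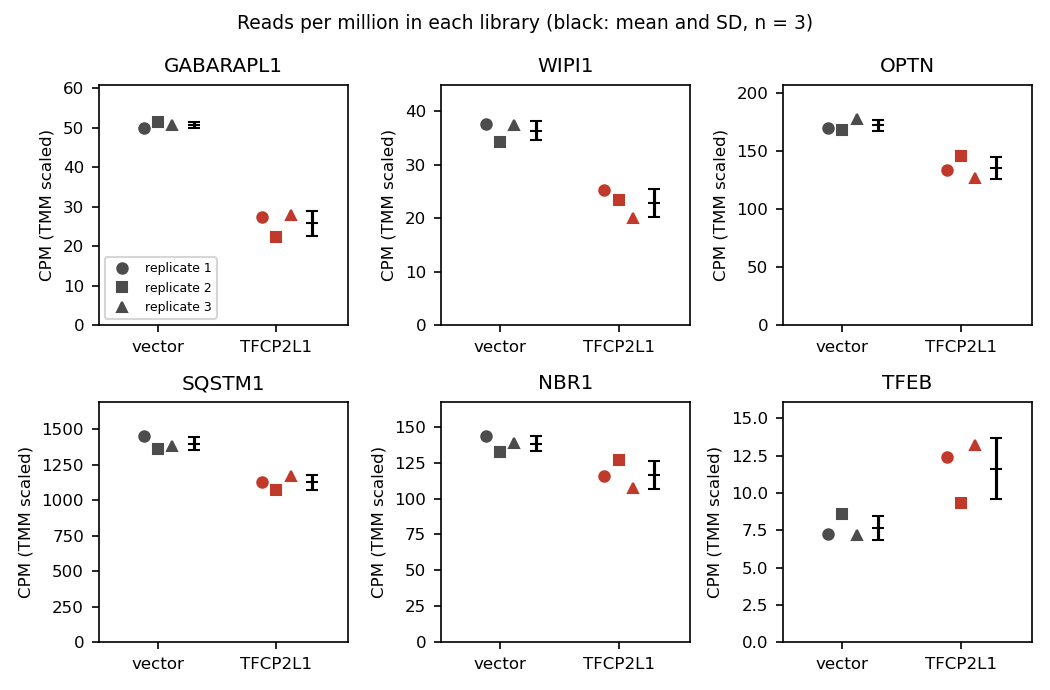
CPM after TMM scaling (y axis, from 0) in each vector (grey) and TFCP2L1 (red) library for the 5 called genes and NBR1, with the mean and SD (n = 3) in black. In every panel the groups do not overlap, and the gap relative to the level is widest for GABARAPL1 and narrowest for NBR1, whose nearest libraries are at 132 and 127 CPM.

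Of the fusion factors, STX17, the autophagosomal SNARE protein that drives fusion with the lysosome, was at 47.7, 51.1 and 51.5 CPM in vector and 55.1, 56.0 and 58.6 CPM in TFCP2L1 libraries. All TFCP2L1 libraries lay above, but the log2 fold change of 0.17 ± 0.08 did not pass (edgeR adjusted p = 0.180). EPG5, a tether that gives fusion its specificity, had -0.13 ± 0.08 with overlap. With TFEB and ATG3, STX17 made up the 3 members whose TFCP2L1 libraries all lay above.

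**Figure D4:**
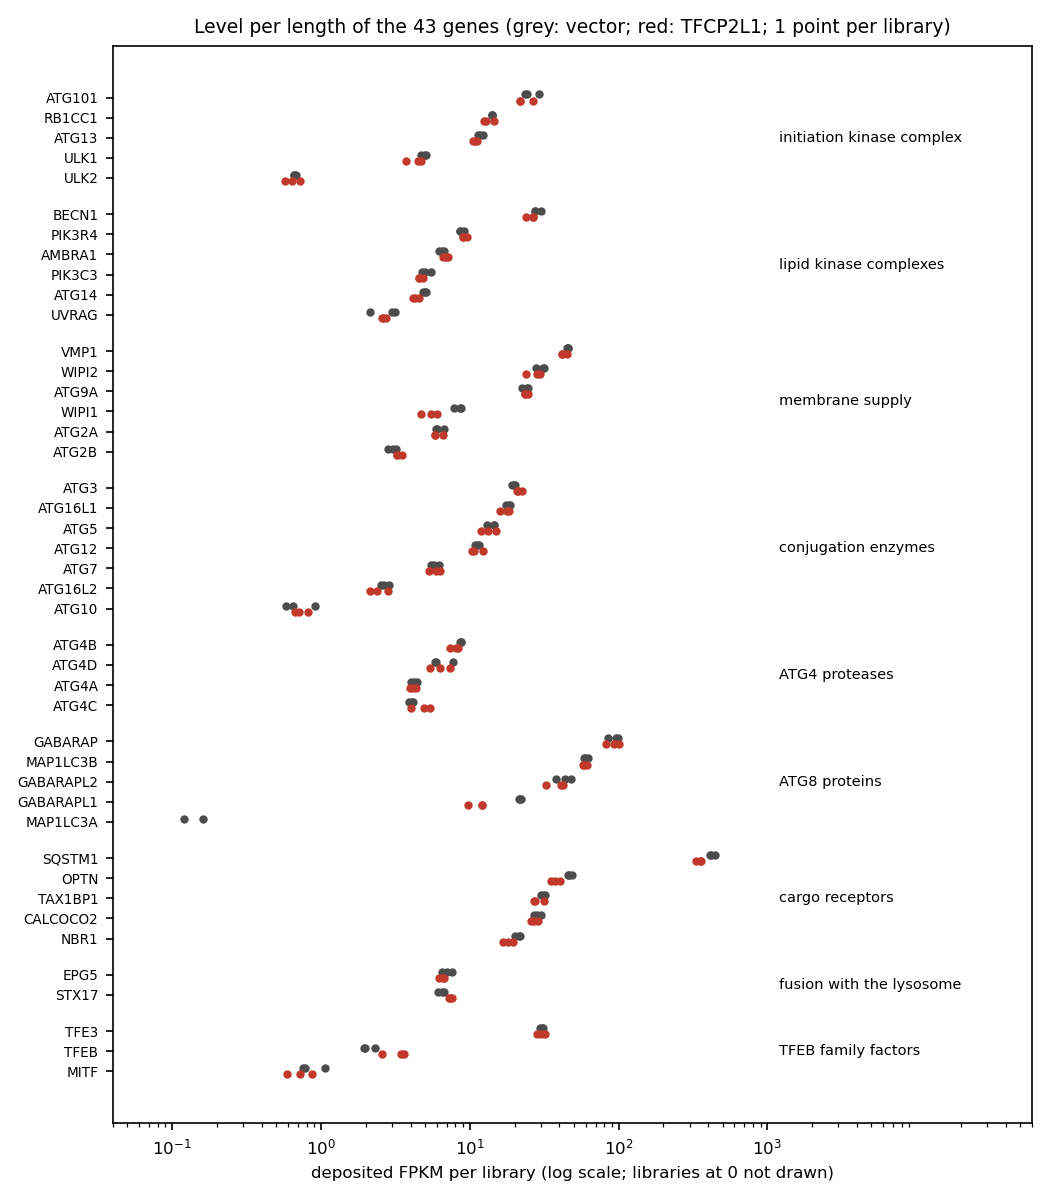
FPKM of each of the 43 genes in each library (x axis, log scale; grey for vector, red for TFCP2L1; libraries at 0 are not drawn), grouped by role on the y axis. Levels span from 0.664 FPKM for ULK2 to 424 for SQSTM1 in vector cells among tested genes, and grey and red points separate by eye for GABARAPL1 and WIPI1.

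Further genes of the pathway were taken from 4 lists outside the 43. These lists, like the 43 genes, were chosen with earlier results of these data known. Their shares beside those of all tested genes are therefore descriptions, and a wider fall of the pathway was not tested. By edgeR with TMM scaling and all 6 libraries, their called genes were lower. Library totals called 1 gene higher in the AMPK and mTORC1 list and 1 in the mitophagy and ER-phagy list, DESeq2 called 1 in the latter, and edgeR without TFCP2L1 replicate 2 called 1 in each. Of 31 tested regulators in the AMPK and mTORC1 pathways, which pass the nutrient state on to ULK1 and TFEB, 4 fell (12.9%, against 7.04% of all tested genes) and 0 rose (against 4.68%), 23 log2 fold changes were negative and the median was -0.15. PRKAG2, a regulatory subunit of AMPK, fell from 68.5 ± 2.91 to 43.6 ± 4.95 CPM (-0.65 ± 0.09, edgeR adjusted p = 0.000180). FNIP2, a partner of folliculin, fell from 55.0 ± 3.40 to 39.9 ± 3.04 CPM (-0.46 ± 0.09). The Rag GTPase gene RRAGD, itself known as a TFEB target, fell from 58.3 ± 1.68 to 47.1 ± 2.78 CPM (-0.31 ± 0.08), and this call did not survive leaving out TFCP2L1 replicate 1 or vector replicate 1 or 3 (largest edgeR adjusted p 0.118). Leaving out either of these vector libraries reduced the 4 genes of this list to 2 (6.45%, against 4.58% of all tested genes without replicate 1 and 4.43% without replicate 3).

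Of 14 tested other core factors, 3 fell (21.4%, against 7.04% of all tested genes) and 0 rose (against 4.68%), with a median log2 fold change of 0.00. TP53INP1, a p53 target whose protein binds ATG8 proteins, fell from 64.7 ± 2.58 to 40.2 ± 3.004 CPM (-0.69 ± 0.08, edgeR adjusted p = 5.02e-05). Its relative TP53INP2 fell from 43.4 ± 4.10 to 29.1 ± 4.94 CPM (-0.58 ± 0.12). The kinase gene DAPK1 fell from 34.7 ± 0.497 to 26.7 ± 3.42 CPM (-0.38 ± 0.10), but that call was lost without any single library except TFCP2L1 replicate 2 (largest edgeR adjusted p 0.0964).

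Of 22 tested factors of mitophagy and ER-phagy, the selective removal of mitochondria and endoplasmic reticulum, 4 fell (18.2%, against 7.04% of all tested genes) and 0 rose (against 4.68%), with a median of -0.06. RETREG1, an ER-phagy receptor, fell from 16.6 ± 1.05 to 10.2 ± 0.590 CPM (-0.70 ± 0.12). PINK1, the kinase that marks damaged mitochondria, fell from 134 ± 11.99 to 88.3 ± 5.32 CPM (-0.61 ± 0.08, edgeR adjusted p = 0.000155). CALCOCO1 fell from 42.6 ± 3.24 to 30.8 ± 2.51 CPM (-0.47 ± 0.10). The count of 4 in this list was less firm than these 3 genes. It became 3 (13.6%, against 4.43% to 7.51% of all tested genes) without any single library except TFCP2L1 replicate 2. Without that library it became 5 (22.7%, against 6.74%). Of 23 tested tethering and fusion factors, 2 fell (8.7%, against 7.04% of all tested genes) and 0 rose (against 4.68%), with a median of -0.12. The lower count became 4 (17.4%, against 6.74%) without TFCP2L1 replicate 2 and 3 (13%, against 7.51%) without TFCP2L1 replicate 3. With all 6 libraries, the SNARE gene VAMP8 fell from 24.4 ± 1.92 to 17.0 ± 1.27 CPM (-0.52 ± 0.11). PLEKHM2 fell from 217 ± 4.66 to 151 ± 4.06 CPM (-0.52 ± 0.07). For FNIP2, TP53INP2, RETREG1, CALCOCO1, VAMP8 and PLEKHM2 the edgeR adjusted p was at most 0.00408. PRKAG2, FNIP2, TP53INP1, TP53INP2, RETREG1, PINK1, CALCOCO1, VAMP8 and PLEKHM2 were each called under all 15 alternatives.

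**Figure D5:**
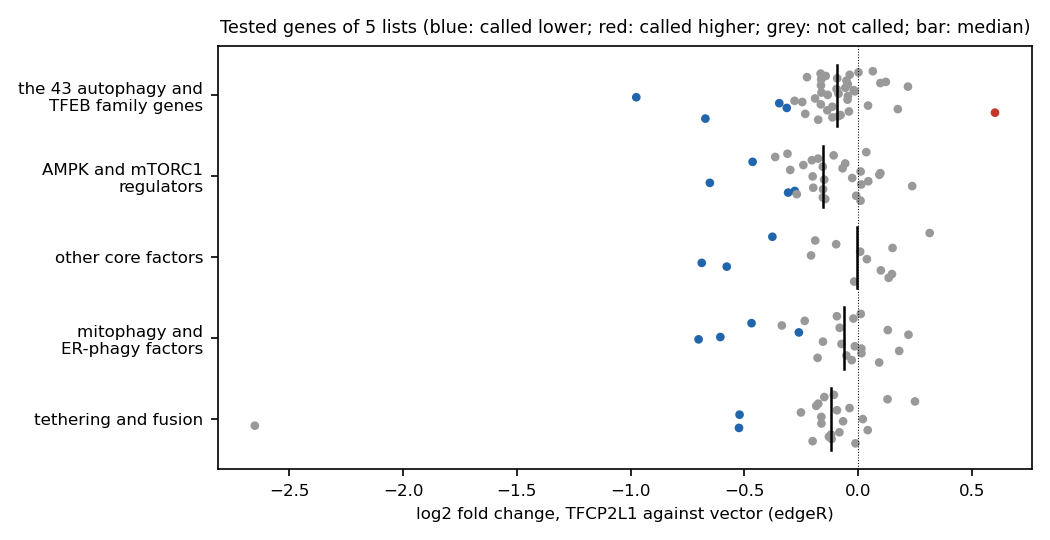
Fold change on a log2 scale (x axis) of every tested gene in the 43-gene set and in 4 further lists of autophagy genes (y axis), with called genes coloured and a bar at each median. Called genes lie below 0 in all 5 lists apart from TFEB; the isolated grey point at -2.65 is VAMP7, picked out after its values were seen, with 1037 reads in vector replicate 3 against 91 and 74 in the other vector libraries.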

How the data were processed

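RNA-seq libraries of TPC1 cells, 3 with a vector and 3 overexpressing TFCP2L1, were made from TRIzol RNA with a VAHTS kit, per the labels' protocols. The submitters' processing notes name fastp, HISAT2, HTSeq and GRCh38.p13, and their versions and the strand setting are not given in the sources used here. The authors deposited raw read counts for 21173 genes and FPKM values that equal count over gene length and library total, so the deposited FPKM held no independent measurement.

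Counts were tested with edgeR 4.0.16 (R 4.3.3; filterByExpr, TMM, robust quasi-likelihood, two-sided), fitted over all 14431 tested genes in 6 libraries, with Benjamini-Hochberg adjustment and a call under 0.05. CPM values are TMM scaled. The pipeline was tested on simulated data, where it called 32% of genes changed 1.3-fold, 66% at 1.5-fold and 80% at 2-fold. At each fold 50 of 14224 genes, drawn over all levels, were changed, and 5.56% of the calls were false. Far fewer genes were changed there than were called in the data, so these rates need not hold for the members. Alternatives were other scalings and filters, DESeq2 1.42.0, limma 3.58.1 (voom, and log2(FPKM + 1) or log2(FPKM + 0.1)), a replicate block and each library left out. Positions and overlaps come from GENCODE 29, transcript copies from blastn 2.17.0 (identity of at least 95% over at least 100 bases), promoters from RefSeq. Overlaps are not given above for every member. Other genes also cover 38.8% of the exon bases of ATG9A on the same strand. Antisense genes cover 19.2% of those of ATG101, 18.1% of ATG7 and 17.1% of BECN1. Their part in the counts was not tested.

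Members and lists were chosen with earlier results of these data known. All 43 members are named; of 4 further lists, the called genes with the 3 largest changes.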

Additional observations from a re-analysis of the deposited data

How the results depend on the processing

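Over all genes 1692 were called, 996 with the replicate block and 967 to 1871 with 1 library left out. Of the members, 1 was called higher (2.38%, against 4.68% of all tested genes) and 4 lower (9.52%, against 7.04%). With the block 0 were higher (against 2.29%) and 3 lower (7.14%, against 4.61%). With a library left out, 0 to 1 were higher (against 1.99% to 5.17%) and 2 to 5 lower (against 4.43% to 7.51%). The 2 came without vector replicate 3 (4.76%, against 4.43%) and the 5 without TFCP2L1 replicate 2 (11.9%, against 6.74%). With the block, the calls of TFEB (edgeR adjusted p = 0.0708) and SQSTM1 (0.0574) were lost. The labels do not say whether the replicate numbers pair the samples. Same-numbered libraries correlated at 0.07, -0.16 and -0.12 in their deviations, and not every library correlated best with its own number. With so few libraries in a group, such correlations cannot settle whether the samples were paired. The members' median log2 fold change of -0.09 became -0.07 with library totals (-0.0661), with limma on FPKM plus 1 (-0.0654) and plus 0.1 (-0.0694), and -0.119 to -0.0773 with a library left out. Library totals moved the median of all genes from 0.00 to 0.03. As a share of raw counts, GABARAPL1 differed by -6.27 percentage points. Of 630 recomputed fold changes of single members, 598 kept direction and side of the threshold, 20 changed sign, none of them called, and the cause of these changes was not tested. With library totals and both limma fits, ATG7 became 0.0080, 0.0059 and 0.0066, and ATG9A 0.0126, 0.0128 and 0.0133. With a library left out, ranges crossed 0 for UVRAG (-0.240 to 0.0203), ATG2A (-0.115 to 0.0188), ATG4D (-0.166 to 0.0776), ATG7 (-0.0676 to 0.0386), ATG9A (-0.0476 to 0.0109), ATG10 (-0.123 to 0.218), ATG12 (-0.122 to 0.0089) and GABARAP (-0.119 to 0.0285). Tested members had 143 to 54695 reads per library, and counting limits the precision most for the lowest.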
